A study of Caenorhabditis elegans with 6 samples.

Results

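The Tc elements are the best-known DNA transposons of *Caenorhabditis elegans*, and the 22G-RNAs antisense to them were compared between wild-type (N2) and *lotr-1(sam117)* worms. Members were the transposon entries of the count tables whose name begins with Tc and a digit in either case. This gave 9 entries, Tc1, Tc1A, TC2, Tc3, TC4, TC5, TC5A, TC5B and Tc6, of 151 transposon entries and 22336 loci in all. The *sam117* allele, carried by strain RFK1256, lacks the whole *lotr-1* coding sequence, and *lotr-1* encodes a germ granule protein with LOTUS and Tudor domains. Each genotype was represented by 3 libraries from whole gravid adults collected 65 hours after plating of arrested L1 larvae. These libraries included no other allele or treatment. The labels do not say that the replicates came from separate cultures, so p-values measure the spread between these libraries, which may be technical. Whole animals were used, so fewer germ cells and fewer 22G-RNAs per germ cell cannot be told apart.

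Tc elements move by a cut-and-paste mechanism, in which an element-encoded transposase binds the inverted repeats at the ends of the element. In N2, Tc1 jumps in somatic cells but is silent in the germline. Silencing depends on mutator proteins, on RNA-dependent RNA polymerases that copy transposon transcripts into antisense 22G-RNAs, and on the WAGO Argonautes that carry them. Tc1 and Tc3 belong to the Tc1/mariner superfamily. TC4 is a foldback element with long inverted repeats, and TC5 is related to TC4 by its ends. The entries Tc1A, TC5A and TC5B are listed separately under lettered names.

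A count is the number of 22-base reads starting with G that lay antisense to any annotated copy of an element, summed over its copies. It is divided neither by length nor by copy number, so counts of different elements are not levels per element, and an entry has no single position in the genome. Reads that aligned to several places were given to 1 place at random. This leaves sums over near-identical copies intact but can move reads between related entries such as Tc1 and Tc1A. No sequences of the elements were used here.

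Libraries held 3150716 to 3829101 counted 22G-RNAs, with similar totals in both genotypes. *lotr-1* itself had 477 to 563 antisense counts in wild-type and 40 to 60 in the mutant, so the counts at the deleted gene fit the labels of all 6 libraries. The scaling of the libraries set the size of every fold change below. With median-of-ratios size factors the median log2 fold change of the tested loci was 0.04, and with scaling to equal totals it was -0.77. Both are therefore given. Ratios between entries within a library need no scaling and are given beside them. Shares of all counted 22G-RNAs are also given, but they carry the same information as total-count scaling. Normalized counts are counts divided by size factors, and CPM values are counts scaled by the total of counted 22G-RNAs of the library.

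22G-RNAs at the Tc elements were more abundant in *lotr-1(sam117)*, although not at every element. In the DESeq2 test against a 2-fold change at 10% FDR, 5 of the 9 entries (55.6%) were called up-regulated, namely Tc1, Tc1A, TC4, TC5 and TC5B, against 8.15% of all 11682 tested loci. None was called down-regulated, against 8.14% of all loci. No entry had an unadjusted p below 0.05 in that direction under either scaling described here, and the edgeR test against 2-fold also called 0 (15.3% of its 8927 loci), with 6 called upward (14%). All 9 passed the filter on low counts. The median log2 fold change was 1.10 over the 9 entries and 1.28 over 137 tested entries of other transposons, of which 62 (45.3%) were called up-regulated. With total-count scaling 2 Tc entries, Tc1A and TC5B, were called up-regulated (4.26% of all loci) and 0 down-regulated (20.0% of all loci), and the median of the 9 was 0.31. In the DESeq2 test against no change, Tc entries passed in 8 cases upward and 1 downward with size factors, against 20.4% and 22.7% of all loci. With total-count scaling they passed in 6 cases upward and 2 downward, against 9.22% and 46.7%. TC2 was the downward case with size factors, and TC2 and TC5A were those with total-count scaling.

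**Figure D1:**
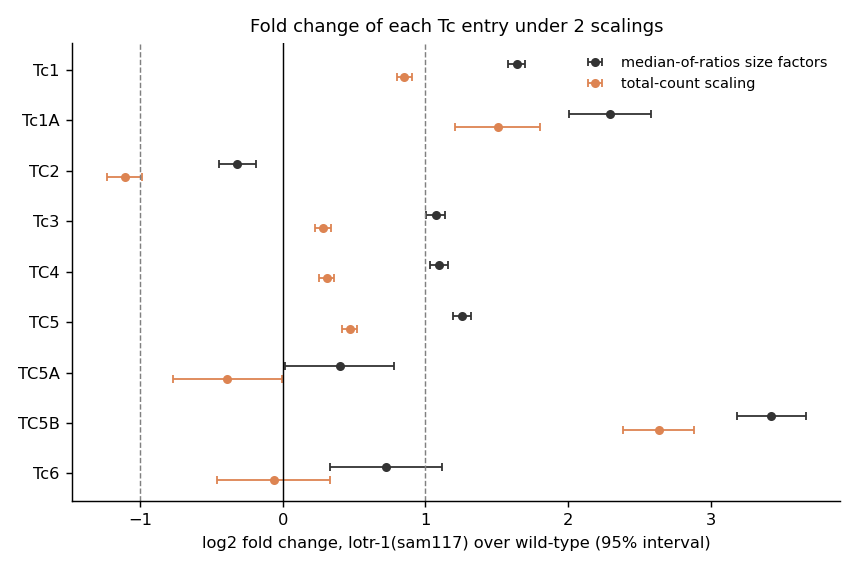
Log2 fold change of each Tc entry, *lotr-1(sam117)* over wild-type, with its 95% interval from DESeq2 (3 libraries per genotype). Black points use median-of-ratios size factors and orange points total-count scaling, and dashed lines mark a 2-fold change. Tc1A and TC5B lie above 2-fold under both scalings, and TC2 lies below 0 under both.

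As a share of all counted 22G-RNAs, the Tc entries together held 1.76%, 1.75% and 1.75% per wild-type library, against 2.49%, 2.47% and 2.49% per mutant library. The groups did not overlap, and the difference of 0.730 percentage points gave p = 0.1 in an exact two-sided permutation test, which is the smallest value possible for 3 against 3. Other transposons gained more. Their share went from 7.46% ± 0.0313 to 11.7% ± 0.211 (SD, n = 3), a ratio of 1.56 against 1.42 for the Tc entries. Of the counts at transposons, the Tc entries therefore held less in the mutant, 17.9%, 17.4% and 17.4%, than in wild-type, 19.1%, 19.0% and 18.9% (exact two-sided permutation test, p = 0.1).

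Tc1, the element whose germline mobility defined the mutator genes, collected 16085, 17500 and 19363 counts across wild-type replicates 1 to 3, against 30502, 35034 and 31350 across the mutant replicates. Every mutant library was above every wild-type library even before scaling. Normalized counts were 13352 ± 293 and 41617 ± 197 (SD, n = 3), a 3.12-fold rise (log2 fold change 1.64, SE 0.0306, DESeq2 adjusted p = 2.13e-95 against 2-fold). In CPM Tc1 went from 5075 ± 26.5 to 9161 ± 94.8 (SD, n = 3), a 1.81-fold rise, and with total-count scaling it was not past 2-fold (log2 fold change 0.85, 95% interval 0.80 to 0.90). Tc1 held 0.507% of all counted 22G-RNAs in wild-type and 0.916% in the mutant. Among all 22336 loci ranked by normalized count, without regard to length, it moved from place 17 to place 6.

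**Figure D2:**
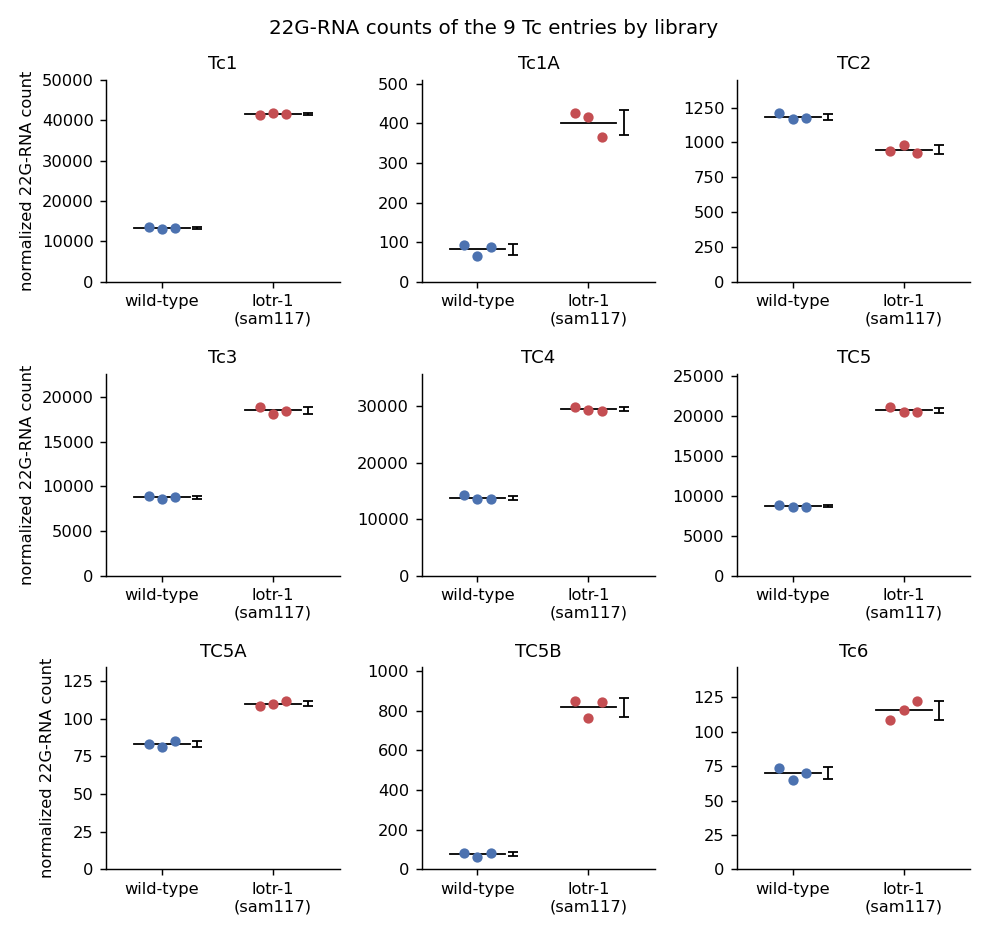
Normalized 22G-RNA counts of the 9 Tc entries in the 3 wild-type (blue) and 3 *lotr-1(sam117)* (red) libraries, each panel on its own axis from 0. Lines are means and bars SD. The genotypes do not overlap in any panel, but how often this holds over all loci was not counted. TC2 is the entry that is lower in the mutant by size factors. In CPM the Tc6 libraries overlap, and TC5A is also lower in the mutant (0.765 of the wild-type value).

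Tc3, TC4 and TC5 had counts of the same order as Tc1 and changed less. Tc3, which PRG-1 and its 21U-RNAs are known to silence, had wild-type counts of 10557, 11503 and 12901, against mutant counts of 13923, 15244 and 13916. Its mutant libraries were all higher, by 2.10-fold in normalized counts (log2 fold change 1.07, 95% interval 1.01 to 1.14) and 1.22-fold in CPM. Tested by DESeq2 against no change the rise passed (adjusted p = 7.94e-222), but tested against 2-fold it did not (adjusted p = 0.183).

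TC4 was at 16726, 18137 and 19767 counts in wild-type, against 22015, 24696 and 21953 in mutant libraries, again with no overlap. Its log2 fold change was 1.10 (SE 0.0327, DESeq2 adjusted p = 0.0198 against 2-fold), so TC4 stood just past the threshold that Tc3 just missed. The call of TC4 was lost without wild-type replicate 2 (DESeq2 adjusted p = 0.318), without wild-type replicate 3 (0.398) and without mutant replicate 1 (0.165). The ratio of TC4 to Tc3 counts within a library was 1.58, 1.58 and 1.53 for wild-type, against 1.58, 1.62 and 1.58 for the mutant. These ranges overlapped, so different calls for TC4 and Tc3 do not show different changes.

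TC5 had wild-type counts of 10348, 11407 and 12668, and 15558, 17244 and 15450 in mutant libraries. Its mean normalized count was 8675 ± 122 in wild-type, and in the mutant it rose to 20739 ± 323 (SD, n = 3). The log2 fold change was 1.26, with an SE of 0.0322 and a DESeq2 adjusted p of 1.89e-14 against 2-fold. TC5 changed more than Tc3 within the libraries. Its count was 0.980, 0.992 and 0.982 times that of Tc3 in wild-type and 1.12, 1.13 and 1.11 times in the mutant, so the order of these elements was exchanged in every library. Scaled to equal totals, the log2 fold changes were 0.28 for Tc3, 0.31 for TC4 and 0.47 for TC5, none past 2-fold.

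The lettered entries had few counts and included the largest rise among the 9. TC5B had wild-type counts of 97, 86 and 119, against mutant counts of 625, 638 and 632. This was a 10.7-fold rise in normalized counts (log2 fold change 3.42, SE 0.123, DESeq2 adjusted p = 1.49e-84 against 2-fold), and a 6.22-fold rise in CPM. TC5B therefore changed more than TC5, from 0.877% ± 0.106 of the TC5 count in wild-type to 3.94% ± 0.208 in the mutant (SD, n = 3). A small part of the reads of TC5, if placed on TC5B, could make up its whole count. Whether reads were exchanged between TC5 and TC5B was not tested.

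TC5A behaved differently from both. It was at 98, 108 and 125 counts in wild-type, against 80, 92 and 84 in mutant libraries, that is 0.960% ± 0.0230 and 0.530% ± 0.0150 of the TC5 count (SD, n = 3). Its direction depended on the scaling, with a log2 fold change of 0.40 (95% interval 0.02 to 0.78) with size factors and -0.39 (95% interval -0.77 to -0.01) with total-count scaling. Neither value passed the DESeq2 test against 2-fold.

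Tc1A had wild-type counts of 108, 88 and 129, and 313, 349 and 274 in mutant libraries, and the groups did not overlap. It rose 4.90-fold in normalized counts (log2 fold change 2.29, SE 0.147, DESeq2 adjusted p = 2.98e-17 against 2-fold) and 2.84-fold in CPM. Tc1A amounted to 0.614% ± 0.0959 of the Tc1 count in wild-type and 0.965% ± 0.0806 in the mutant (SD, n = 3), so a small part of the reads of Tc1, if placed on Tc1A, could make up its whole count. Whether reads were exchanged between them was not tested.

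Tc6 had wild-type counts of 87, 87 and 103, against mutant counts of 80, 97 and 92, and these raw counts overlapped. Its log2 fold change was 0.73 (95% interval 0.33 to 1.12) with size factors and -0.062 (95% interval -0.46 to 0.33) with total-count scaling. It passed the DESeq2 test against no change only with size factors (adjusted p = 0.00111, against 0.839), so no direction can be given for Tc6 without choosing a scaling.

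TC2 fell under both scalings. It was at 1420, 1553 and 1721 counts in wild-type, against 694, 824 and 694 in mutant libraries, so that its highest mutant library lay well below its lowest wild-type library. In CPM it fell from 450 ± 0.789 to 209 ± 6.39 (SD, n = 3), to 0.464 of the wild-type value. The log2 fold change was -0.32 (SE 0.0656, DESeq2 adjusted p = 6.58e-06 against no change) with size factors, and -1.11 (95% interval -1.23 to -0.98, adjusted p = 0.326 against 2-fold) with total-count scaling. Neither value was past 2-fold by the test. TC2 counts were 13.5%, 13.5% and 13.3% of Tc3 counts per wild-type library, against 4.98%, 5.41% and 4.99% per mutant library. Among transposons ranked by normalized count it went from place 36 to place 65 of 151.

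**Figure D3:**
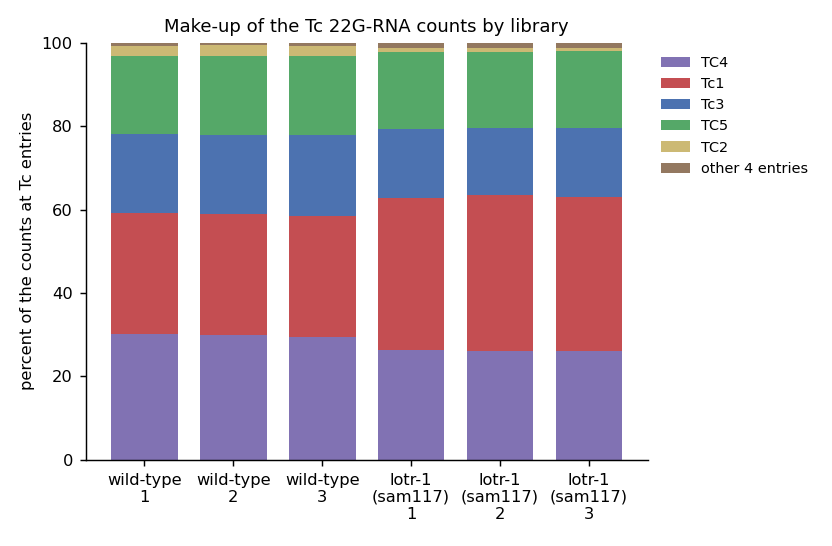
Percentage of the counts at Tc entries held by each entry in each library, with Tc1A, TC5A, TC5B and Tc6 combined. Tc1 takes 28.9% to 29.0% in wild-type and 36.4% to 37.2% in *lotr-1(sam117)*, while TC4, Tc3 and TC2 take less.

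To judge Tc1 against its relatives, its counts were divided by theirs within each library, which removes the scaling. Tc1 amounted to 0.408, 0.407 and 0.407 times the summed counts of the other 8 entries in wild-type and to 0.572, 0.592 and 0.590 times in the mutant. The log2 ratio rose by 0.52, while its SD was 0.00105 in wild-type and 0.0270 in the mutant, and the p-value was the smallest possible (exact two-sided permutation test, p = 0.1). Tc1 had slightly fewer counts than TC4 in each wild-type library (0.962, 0.965 and 0.980 times) and more in each mutant library (1.39, 1.42 and 1.43 times). As a share of all Tc counts, Tc1 rose by 7.95 percentage points and TC4 fell by 3.73 percentage points, whereas TC5 fell by 0.424 percentage points.

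Each of the other entries was also set against Tc1 alone, in 8 exact two-sided permutation tests. In all 8 the libraries of the genotypes did not overlap, and each p was 0.1, the smallest possible, and 0.1 after Benjamini-Hochberg adjustment over the 8. All 8 ratios share the Tc1 counts, so they are not independent. How often the ratio of Tc1 to other loci separates the genotypes was not counted, so the 8 cases are a description only. Tc1 gained on 6 entries. The log2 ratio rose by 1.96 against TC2, 1.24 against TC5A, 0.92 against Tc6, 0.57 against Tc3, 0.54 against TC4 and 0.38 against TC5. It fell by 0.65 against Tc1A and fell by 1.78 against TC5B. Among the 5 entries with the most counts, Tc1, TC4, Tc3, TC5 and TC2, Tc1 thus had the largest log2 fold change and TC2 the smallest.

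**Figure D4:**
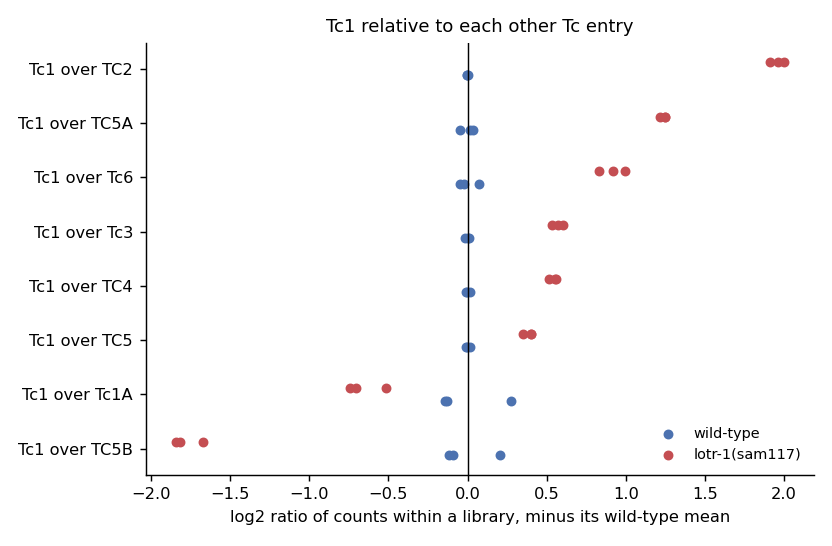
Log2 ratio of Tc1 counts to those of each other Tc entry within a library, drawn as the difference from the wild-type mean, for wild-type (blue) and *lotr-1(sam117)* (red). Mutant points lie to the right where Tc1 gained on the entry, as for TC2 (1.96), and to the left where it lost, as for TC5B (-1.78).

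Tc1 was then set beside gene loci with a similar wild-type count, as a description. Within 0.5 to 2 times its wild-type normalized count there were 34 gene loci, of which 5 (14.7%) were called up-regulated and 2 (5.88%) down-regulated. Their median log2 fold change was 0.60, with quartiles of 0.14 and 0.93, and 1 of the 34 exceeded the 1.64 of Tc1. With total-count scaling the median of the 34 loci in that window was -0.18 against 0.85 for Tc1, and again 1 locus exceeded it. TC4, TC5 and Tc3 were less far from genes of like count. Of 32 gene loci around TC4, 5 had a larger fold change, of 60 around TC5, 4 did, and of 60 around Tc3, 8 did. Of other transposon entries in those windows, 1 of 6 exceeded Tc1, 3 of 6 TC4, 4 of 10 TC5 and 5 of 10 Tc3. Of all 137 tested entries of other transposons, 50 had a larger log2 fold change than Tc1 with size factors. The rise of Tc1 was thus less unusual among transposons than among genes.

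The entries with low counts lay among many more loci. Around TC5B, 48 of 3354 gene loci (1.43%) had a larger log2 fold change, and around Tc1A, 105 of 3422 (3.07%). Of the other transposon entries in those windows, 0 of 32 exceeded TC5B, but 9 of 34 (26.5%) exceeded Tc1A. Around TC2, by contrast, 361 of 531 gene loci (68.0%) had a larger one than its -0.32, and so did 23 of the 26 other transposon entries in that window. TC2 was therefore not unusual among genes but low among transposons.

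**Figure D5:**
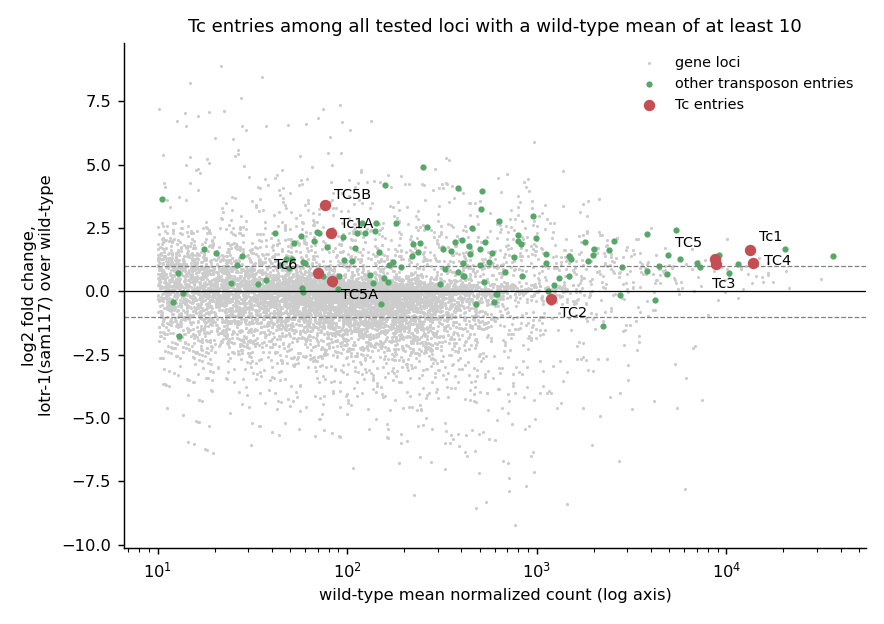
Log2 fold change against the wild-type mean normalized count (log axis) for tested gene loci (grey), other transposon entries (green) and the 9 Tc entries (red, named), for loci with a wild-type mean of at least 10. Tc1, Tc3, TC4 and TC5 lie at the right edge of the counts at log2 fold changes of 1.07 to 1.64, and TC2 lies below most transposons.

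The gene loci whose level over the 6 libraries was closest to Tc1, by Euclidean distance of log2 normalized counts, were F15D4.5 (distance 0.405), a pseudogene (WBGene00009511, 0.642), *sqst-1* (0.710), a second pseudogene (WBGene00000801, 1.15) and *linc-29* (1.17). *sqst-1* encodes an autophagy receptor. F15D4.5 (WBGene00008862, chromosome II, 13245376 to 13247774, WBcel235) had a log2 fold change of 1.31 and *sqst-1* (WBGene00011737, chromosome IV, 12034282 to 12036891) of 2.05. Both were called up-regulated with size factors, as was the pseudogene WBGene00009511 (1.13). With total-count scaling *sqst-1* alone of the 5 was called (log2 fold change 1.26). Of these 5, *sqst-1* alone had a larger log2 fold change than Tc1. The mutant libraries were part of the distance, so the choice itself favoured loci with fold changes near that of Tc1. The pseudogene counts are uncertain, since reads from a parent gene could be placed there.

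The entries named Mariner, from the same superfamily as Tc1, and NTC2A, named after Tc2, were called up-regulated with size factors in 4 cases of 5, against 8.15% of all loci and 45.3% of other transposons. Mariner2_CE had wild-type counts of 11022, 11953 and 13450, and 18416, 20892 and 19121 in mutant libraries, close to Tc3 in wild-type but with a larger log2 fold change, 1.45 (SE 0.0323, DESeq2 adjusted p = 6.75e-43 against 2-fold). Mariner3_CE (1.94), Mariner5_CE (2.31) and NTC2A (2.16) rose further, and all 3 exceeded Tc1. Mariner4_CE had at most 7 counts in any library and allows no statement. With total-count scaling Mariner3_CE and Mariner5_CE were still called, against 4.26% of all loci. Another pair of entries with mariner-like names, chosen after their values were seen, were not called up-regulated. MARINCE1 had a mean of 7243 ± 281 normalized counts in wild-type (SD, n = 3) and a log2 fold change of 0.96, or 0.17 when scaled to equal totals. MAR_CE, with 33 to 79 counts per library, had a log2 fold change of 0.11 (DESeq2 adjusted p = 0.795 against no change), and -0.68 when scaled to equal totals (adjusted p = 0.0220).

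NTC2A had wild-type counts of 74, 66 and 86, against mutant counts of 173, 222 and 200, opposite in direction to TC2. CELETC2, also named after Tc2 and chosen after its values were seen, had a log2 fold change of 0.98 by size factors, or 0.19 by total-count scaling. The fall of TC2 was thus not shared by the entries named after it.

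Finally, 24 genes listed for Tc silencing, RNA interference or germline 22G-RNAs were examined for 22G-RNAs antisense to their own exons. Such counts are not a measure of how these genes are expressed. In the tests against 2-fold none was called up-regulated by DESeq2 or by edgeR, and 0 had an unadjusted DESeq2 p below 0.05 upward. DESeq2 with size factors called 2 down-regulated (8.33% of the list, near the 8.14% of all loci), *smut-1*, a paralog of the mutator helicase gene *mut-14*, with 358, 439 and 445 wild-type counts against 40, 36 and 31 mutant counts (log2 fold change -2.76), and *rde-8*, an endonuclease gene of RNA interference, with 131, 144 and 141 against 19, 17 and 14 (log2 fold change -2.29). *smut-1* and *mut-14* are similar enough that reads could be exchanged between them, which was not tested. With total-count scaling 6 were called down-regulated (25% of the list, against 20.0% of all loci), the other 4 being *mut-2*, *znfx-1*, *ekl-1* and *nyn-2*. Their log2 fold changes by that scaling were -2.43 for *mut-2*, a nucleotidyltransferase gene, -1.13 for *znfx-1*, a helicase gene of germ granules, -1.73 for *ekl-1*, a Tudor domain gene, and -2.20 for *nyn-2*, a nuclease gene related to *rde-8*. By size factors they were -1.64, -0.34, -0.94 and -1.41. The edgeR test called 4 down-regulated (16.7%, against 15.3% of its loci), namely *smut-1*, *rde-8*, *mut-2* and *nyn-2*. Against no change, DESeq2 with size factors called 2 of the 24 upward (20.4% of all loci) and 11 downward (22.7% of all loci). The upward cases were *prg-1*, the Argonaute gene of 21U-RNAs (log2 fold change 0.27, DESeq2 adjusted p = 6.03e-07), and *rde-11* (0.21, DESeq2 adjusted p = 0.00284). Scaled to equal totals, 0 of the 24 passed upward and all 24 downward (46.7% of all loci). That scaling put the median log2 fold change of all loci tested against no change at -0.72. With size factors the median was -0.17 over the 24 and 0.04 over all loci tested against 2-fold. By total-count scaling *prg-1* was among those downward (log2 fold change -0.52, DESeq2 adjusted p = 1.15e-24), so the direction of *prg-1* and *rde-11* depended on the scaling. *mut-7* (-0.15) and *mut-16* (0.14), encoding an exonuclease and the scaffold of mutator foci, did not pass against no change with size factors (DESeq2 adjusted p = 0.162 and 0.391) and passed downward by total-count scaling (log2 fold change -0.94 and -0.65).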

How the data were processed

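Per the deposited files and the study's methods, the authors made raw counts per locus with no normalization. Reads were trimmed with cutadapt 2.4 and aligned to WBcel235/ce11 with Bowtie 1.2.2, allowing a mismatch and placing multi-mapping reads at random. They were assigned with featureCounts 1.6.2, with transposon annotation from the UCSC RepeatMasker track. Collapsing of PCR duplicates is not stated. Libraries had 16 PCR cycles.

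All 22336 loci were fitted with DESeq2 1.42.0 (R 4.3.3) by genotype, with a Wald test against an absolute log2 fold change of 1, independent filtering and calls at a Benjamini-Hochberg adjusted p below 0.1. DESeq2 was used because the study used it; edgeR 4.0.16 was an alternative. Fold changes were not shrunken. Ratios between entries used a pseudocount of 1 for pairs. Permutation tests were exact (scipy 1.17.1), and scripts were tested on simulated data. Gene positions are from Ensembl release 115.

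All 9 entries, 5 Mariner and NTC entries, the 5 gene loci nearest to Tc1 and 24 silencing genes (with values for those called and for *mut-7*, *mut-16* and *prg-1*) were to be named. Members and lists were chosen with earlier results of these data known. Alternatives were other scalings, filters, tests and FDR limits, a replicate block, summed entries and leaving out each library.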

Additional observations from a re-analysis of the deposited data

How the results depend on the processing

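Scaling to equal totals changed most. Tc1 was no longer past 2-fold (log2 fold change 0.85), TC5A turned to -0.39 and Tc6 to -0.062, also in the test against no change, and 2 Tc entries were called up-regulated in place of 5. Among gene loci of a count similar to that of Tc1, 2.94% were then called up-regulated in place of 14.7%. Beyond the shift of all loci, the cause was not tested. Testing against no change without a fold limit, added after the data were seen, called 8 entries up-regulated and 1 down-regulated with size factors. With total-count scaling that test called 6 up-regulated and 2 down-regulated. Summing the entries of an element left 6 entries, of which 3 were called up-regulated. Measured against the counts at transposons, the Tc share changed by -1.47 percentage points in place of 0.730. Tc1 and TC5 were called under every alternative other than total-count scaling, and Tc1A and TC5B under every alternative in which they were listed. Tc3 was also called with size factors from genes only or from high-count loci alone (mean over 100), with the filter of 10 counts in 3 libraries, and in both edgeR tests and the DESeq2 test against no change with a 2-fold limit. TC4 was not called with TMM factors (1.05). Leaving out each library in turn gave 4 to 5 entries called up-regulated, a log2 fold change of Tc1 from 1.61 to 1.65, a Tc share difference from 0.727 to 0.735 percentage points, and a log2 ratio of Tc1 to the other entries from 0.51 to 0.54. With the replicate number as a block, 4 entries were called up-regulated, and TC4 was lost (DESeq2 adjusted p = 0.147). Libraries with the same number did not deviate together (correlations 0.00774 to 0.00884 over 8789 loci), so the numbers were not taken as pairs. The lettered entries and Tc6, with 80 to 129 counts in most libraries, had the widest intervals.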
